A study of Rattus norvegicus with 9 samples.

Results

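The Zfp36 and Elavl proteins bind U-rich and AU-rich stretches of messenger RNAs and set how long those messages last. The levels of 7 genes of these families (Zfp36, Zfp36l1, Zfp36l2, Elavl1, Elavl2, Elavl3, and Elavl4) were compared in rat brain on 9 one-color arrays. The genes were found by their symbol among 16581 symbols carried by 19996 of the 30367 probes, and each had 1 probe of 60 bases. For each of the 7, at least 1 group had a signal well above background on its 3 arrays, so that all 7 entered the test.

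The rats were Sprague Dawley, and RNA came from the infarcted side of the brain at day 14. Sham rats (n = 3) had the operation without the filament and received solvent. I/R rats (n = 3), the ischemia/reperfusion model, had 2 h of arterial occlusion and then reperfusion. DHI rats (n = 3) had the same 2 h of occlusion and reperfusion and were given Danhong injection, a preparation made from 2 medicinal plants, by tail vein for 14 days. No transgene or deletion was used, and the tissue is a mixture of all cells of the hemisphere. The labels number the arrays within a group and do not say whether each holds the RNA of a single rat, so p-values measure the spread between these arrays.

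The Zfp36 family has CCCH zinc fingers. Its members bind AU-rich elements in the tails of messages for cytokines, immediate early proteins, and growth factors, bring in the CCR4-NOT deadenylase, and so speed up decay. Elavl proteins have RNA recognition motifs, bind U-rich and AU-rich elements too, and mostly protect the message. Elavl1, or HuR, is made in nearly all cells, whereas Elavl2, Elavl3, and Elavl4, or HuB, HuC, and HuD, are made mainly in neurons and their antibodies are used to stain neurons.

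Some of the probe sequences carry the kinds of element that these proteins bind. The stretches below are printed in the direction of the message, with T for U. Capitals mark, for Zfp36, the nonamer TTATTTATT, the core of AU-rich elements bound by its own family. For Elavl1 they mark TTTNTTT, a U-rich element of the kind bound by Elavl proteins, and for Zfp36l1 a stop triplet at the end of the probe. Elavl3 is shown as a probe without either element.
Zfp36, bases 4 to 33: tatgacgactTTATTTATTgtaataagatt
Elavl1, bases 31 to 60: ggggttctgttctgttaatTTTCTTTtgct
Zfp36l1, bases 1 to 60: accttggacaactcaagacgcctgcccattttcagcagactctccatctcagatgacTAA
Elavl3, bases 1 to 60: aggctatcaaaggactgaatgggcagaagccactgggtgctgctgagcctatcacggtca
The Zfp36 probe (rn4, chr1:83486788-83486847, minus strand) held the pentamer ATTTA 3 times, the nonamer once, TTTNTTT once, and only 20% G and C. The nonamer was found in 31 of the 23747 probes tested (0.131%), and each of those 31 also held ATTTA, which was found in 6.46%. The Elavl1 probe (chr12:1499916-1499975, plus strand) held TTTNTTT, which was found in 3.61% of probes tested. None of these elements was found in the other 5 probes. All letters were searched in the direction of the message, and a match describes the probe and is no evidence of binding.

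The Zfp36l1 probe lies at chr6:103121166-103121225, the Zfp36l2 probe at chr6:7532201-7532260, the Elavl2 probe at chr5:111179274-111179333, the Elavl3 probe at chr8:21132441-21132500, and the Elavl4 probe at chr5:131672015-131672074, all on the minus strand of rn4. The Zfp36l1 probe had 1 reading frame whose single stop was the TAA at its last 3 bases and 1 with no stop, and the Elavl3 probe had 1 frame with no stop. No annotation of exons for this build was used. Other transcript forms of these genes were not measured by these probes.

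Array intensities at the 75th percentile were 2569.7 to 2745.3 for Sham, 2628.7 to 3464.4 for I/R, and 1816.3 to 2785.1 for DHI, and 75.2% to 78.9% of probes were well above background. Signals below are log2 intensities relative to that percentile of the same array, and the number of arrays limits their precision. Sham and I/R shared a slide and the DHI arrays had another, so the slide and the treatment cannot be told apart in any comparison with DHI. Of the DHI arrays, DHI 1 was the one farthest toward I/R for 7 of 7 genes, as it was for 80.3% of all probes tested. Of the I/R arrays, I/R 3 was the one nearest Sham for 7 of 7 genes and for 69.7% of all probes. The genes therefore share these arrays, and their agreement is not that of 7 independent measurements.

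In the I/R brain the widely made Elavl1 rose 3.35-fold, and Zfp36l1 and Zfp36l2 rose 2.33-fold and 1.56-fold. The neuronal Elavl2 and Elavl3 fell to levels 4.37-fold and 2.35-fold lower. Elavl4 was 4.88-fold lower and Zfp36 2.47-fold higher without passing the adjusted test. Thus 5 of the 7 genes passed, 3 upward and 2 downward, where 31.5% of all probes tested passed (16.4% upward and 15.1% downward). To pass, a gene needed a limma p under 0.05 after Benjamini-Hochberg adjustment and a fold change (FC) over 1.5, and "rose" and "fell" are used for these genes only. At the study's thresholds, an unadjusted p under 0.05 and an FC over 1.5, 6 of the 7 passed, 3 upward and 3 downward, where 43.1% of all probes did (20.8% upward and 22.3% downward). Groups did not overlap for 6 of the 7 genes, 3 with I/R higher and 3 with I/R lower, against 62.5% of all probes (26.7% and 35.8%). The adjusted calls depended on most of the arrays. With any one of the 3 Sham arrays, I/R 1, I/R 2, or DHI 3 left out, 0 of the 7 genes passed the adjusted test. The same held with no scaling between arrays. In these settings 0 or 1 of all probes passed it, while 3 to 6 genes passed the study's thresholds. Without I/R 3, DHI 1, or DHI 2, in turn, 6, 6, and 5 genes passed the adjusted test, where 42.7%, 43.2%, and 33.7% of all probes did.

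**Figure D1:**
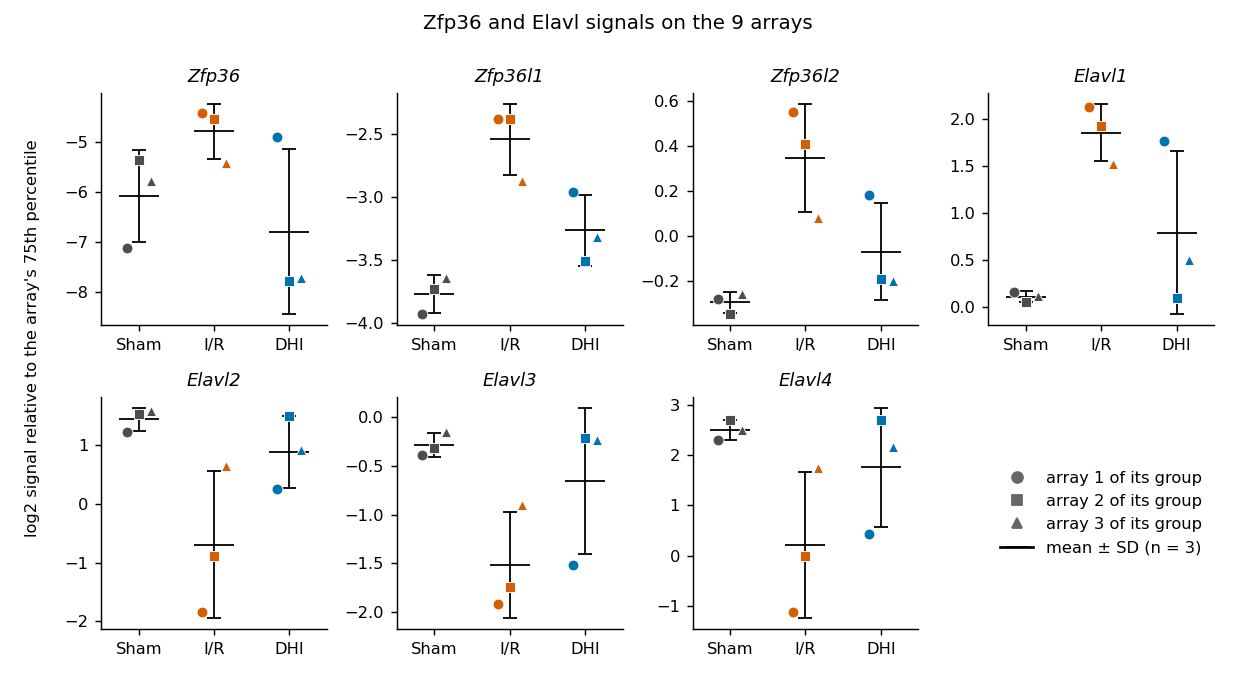
Log2 signal of each gene (y axis, relative to the array's 75th percentile) on the 9 arrays by group (x axis). Points are arrays, with the marker giving the array's number, and bars are mean ± SD (n = 3). The I/R arrays lie above the Sham arrays for Zfp36l1, Zfp36l2, and Elavl1 and below them for Elavl2, Elavl3, and Elavl4, and DHI 1 (circle) lies closest to the I/R arrays in every panel. Each panel has its own y scale.

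Elavl1 had log2 signals of 0.16, 0.05, and 0.12 on Sham arrays 1 to 3, of 2.12, 1.92, and 1.52 on I/R arrays 1 to 3, and of 1.76, 0.1, and 0.5 on DHI arrays 1 to 3. The Sham arrays lay close together (0.11 ± 0.06, SD, n = 3), every I/R array was above all of them, and the DHI arrays ranged from the Sham level to the I/R level. Elavl1 is the member of its family that shuttles between nucleus and cytoplasm in nearly all cell types. It rose by 1.74 on the log2 scale (SE 0.39, 95% confidence interval 0.84 to 2.65, limma adjusted p = 0.0396).

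Zfp36l1 had log2 signals of -3.93, -3.73, and -3.64 on the Sham arrays, of -2.38, -2.38, and -2.87 on the I/R arrays, and of -2.96, -3.51, and -3.32 on the DHI arrays. The 3 groups did not overlap, with Sham lowest, DHI between, and I/R highest. Zfp36l1 destabilizes AU-rich messages in many cell types and is needed for blood vessel formation in the embryo. It rose by 1.22 (SE 0.21, 95% confidence interval 0.74 to 1.7, adjusted p = 0.0396). The study picked this gene for a network from the same arrays, so its change here is not independent evidence.

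Zfp36l2 had log2 signals of -0.28, -0.35, and -0.26 on the Sham arrays, of 0.55, 0.41, and 0.08 on the I/R arrays, and of 0.18, -0.19, and -0.2 on the DHI arrays. All I/R arrays were above all Sham arrays, and the DHI arrays lay above Sham as well. Zfp36l2 is the member of its family known for its part in blood stem cells and in the oocyte. It rose by 0.64 (SE 0.18, adjusted p = 0.0405), an FC of 1.56, just over the limit of 1.5. Without I/R 1 its log2 fold change of 0.54 was under that limit, with an unadjusted limma p of 0.0274.

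Zfp36, or tristetraprolin, the member that limits the message of tumor necrosis factor, gave faint signals. Its log2 signals were -7.12, -5.36, and -5.77 on the Sham arrays, -4.41, -4.53, and -5.42 on the I/R arrays, and -4.89, -7.78, and -7.71 on the DHI arrays. Sham and I/R overlapped, and DHI 2 and DHI 3 were not well above background, with intensities of 8.28 and 10.1 against 18.4 to 133 on the other 7 arrays. The difference between I/R and Sham was 1.30 (SE 0.81, 95% confidence interval -0.57 to 3.17, adjusted p = 0.221), and 0.54 with normexp background correction.

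Elavl2, a neuronal member made early in neuron differentiation, had log2 signals of 1.21, 1.52, and 1.57 on the Sham arrays, of -1.84, -0.89, and 0.64 on the I/R arrays, and of 0.25, 1.48, and 0.91 on the DHI arrays. The I/R arrays were all below Sham and were widely spread (-0.7 ± 1.25, SD, n = 3, against 1.43 ± 0.2 in Sham), with I/R 3 the highest. Elavl2 fell by 2.13 (SE 0.59, 95% confidence interval -3.48 to -0.78, adjusted p = 0.0404).

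Elavl3, the member found in most mature neurons, had log2 signals of -0.39, -0.32, and -0.15 on the Sham arrays, of -1.92, -1.74, and -0.9 on the I/R arrays, and of -1.52, -0.21, and -0.23 on the DHI arrays. All I/R arrays were below all Sham arrays, and DHI 1 alone of its group was at the I/R level. Elavl3 fell by 1.23 (SE 0.40, 95% confidence interval -2.16 to -0.31, adjusted p = 0.0483).

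Elavl4, which stabilizes Gap43 and Bdnf messages in neurons, had log2 signals of 2.29, 2.69, and 2.5 on the Sham arrays, of -1.12, -0.01, and 1.75 on the I/R arrays, and of 0.43, 2.69, and 2.15 on the DHI arrays. The I/R arrays were all below Sham. Its difference of -2.29 (SE 0.78, 95% confidence interval -4.08 to -0.5) had an unadjusted p of 0.0185 and an adjusted p of 0.0535 in limma, short of the adjusted threshold. Among the 4 Elavl genes the direction thus differed: Elavl1 minus Elavl2, taken within each array, was -1.46 to -1.04 in Sham and 0.88 to 3.96 in I/R. The same difference went from 0.27 to 0.55 up to 2.42 to 4.04 for Elavl3, and from -2.63 to -2.13 up to -0.23 to 3.24 for Elavl4. These shifts of 3.87, 2.97, and 4.03 on the log2 scale each gave p = 0.1 (adjusted p = 0.1 over the 3 pairs) in an exact two-sided permutation test, the smallest p that 3 against 3 arrays allow. They were computed after the directions had been seen. Since I/R and Sham already separated in opposite directions for Elavl1 and for each neuronal gene, this p was fixed beforehand. The test therefore adds no support.

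**Figure D2:**
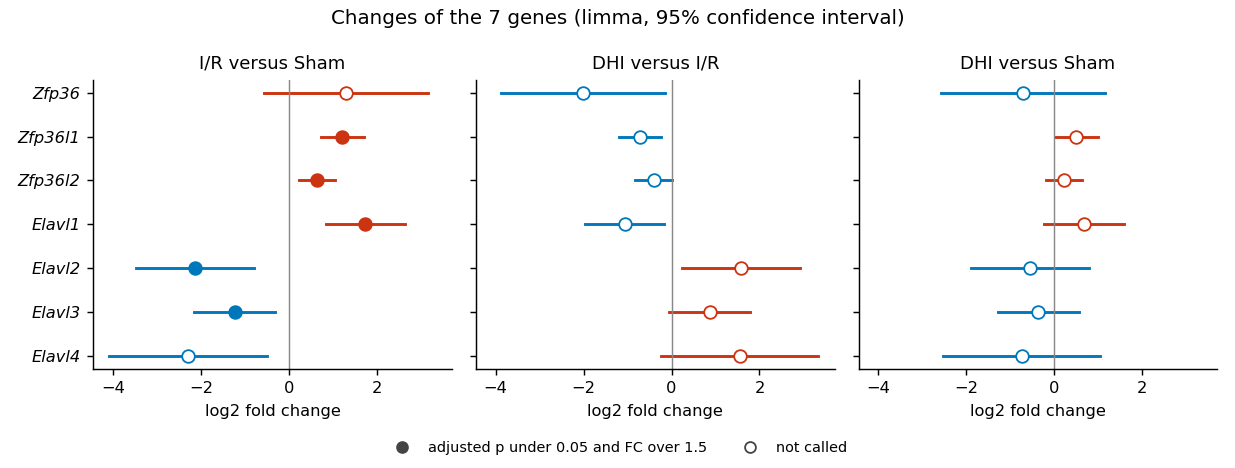
Log2 fold change of the 7 genes (x axis) in each of the 3 comparisons, with 95% confidence intervals from limma (n = 3 arrays per group). Filled circles mark genes with an adjusted p under 0.05 and an FC over 1.5, which are 5 genes in I/R versus Sham and 0 in both comparisons with DHI.

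Markers of neurons moved beside the neuronal Elavl genes, and markers of microglia and macrophages beside the Zfp36 genes and Elavl1. Of the neuron markers, 8 of 11 fell and 0 rose, where 15.1% of all probes fell and 16.4% rose. Their median log2 fold change was -2.62, against -0.1 over all probes tested. Nefl, a neurofilament, fell by 3.04 (SE 0.83, adjusted p = 0.0404), Snap25, of the synaptic release machinery, fell by 3.00 (SE 0.74, adjusted p = 0.0396), and Rbfox3, the NeuN antigen, fell by 2.85 (SE 0.73, adjusted p = 0.0396). All 11 were well above background on every array, and their summed level, in multiples of the array's 75th percentile, was 77.1 to 83.7 in Sham, 7.63 to 38.3 in I/R, and 25.2 to 82.7 in DHI. In such bulk tissue, fewer cells of a type and less RNA per cell cannot be told apart.

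Microglia and macrophage markers rose for 9 of 10 genes, with a median of 3.6, where 16.4% of all probes rose. Cd68, a lysosomal protein of phagocytes, rose by 6.69 (SE 1.45), Ptprc, the CD45 antigen, by 4.68 (SE 1.02), and Tyrobp, a signaling adaptor, by 4.25 (SE 0.89), each with an adjusted p of 0.0396. The exception was Cx3cr1, the fractalkine receptor of resting microglia, with -1 (SE 0.52, adjusted p = 0.156). The markers of this list were well above background on all arrays, and their summed level was 20.2 to 24.5 in Sham, 147 to 371 in I/R, and 27.2 to 209 in DHI. The part of these shifts in the changes of the Zfp36 and Elavl genes was not tested.

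Set against the markers within each array, the neuronal Elavl genes lay higher relative to the median neuron marker in I/R than in Sham. Elavl3 minus that median was -1.74, -1.94, and -1.88 on the Sham arrays and 0.9, -0.49, and -1.37 on the I/R arrays, a difference in means of 1.53. For Elavl2 the difference was 0.63 and for Elavl4 0.48, and for all 3 genes the I/R arrays were above the Sham arrays. The neuron markers themselves had log2 fold changes from -3.04 (Nefl) to -1.66 (Stmn2). Elavl2 (-2.13) and Elavl4 (-2.29) lay within this range, and Elavl3 (-1.23) lay above it. The Zfp36 genes lay lower in I/R than in Sham against the median microglia and macrophage marker. Zfp36l2 was -1.46, -1.6, and -1.17 in Sham and -3.64, -3.39, and -2.52 in I/R, a difference of -1.77. For Zfp36l1 the difference was -1.19, again with no overlap, and for Zfp36 it was -1.11 with overlap. The median log2 fold change of this list was 3.6, and the cells that made the Zfp36 messages were not measured. Lower values against it therefore do not show less Zfp36 message in microglia or macrophages. By exact two-sided permutation tests over the 6 genes, p was 0.1 for 5 of them, the smallest possible, and 0.2 for Zfp36, with adjusted p of 0.12 and 0.2. In DHI the values on arrays 1 to 3 were 0.65, -0.38, and 0.03 for Elavl2, -1.12, -2.07, and -1.11 for Elavl3, and -6.27, -4.64, and -4.7 for Zfp36l1. These ranged from within or below the Sham values to within the range of I/R. For Zfp36l2 they were -3.13, -1.32, and -1.59, with DHI 1 in the range of I/R and the others in that of Sham. For Elavl4 they were 0.83, 0.83, and 1.26, with DHI 1 in the range of Sham. For Zfp36 they were -8.2, -8.91, and -9.09, with DHI 2 and DHI 3 below every I/R array.

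**Figure D3:**
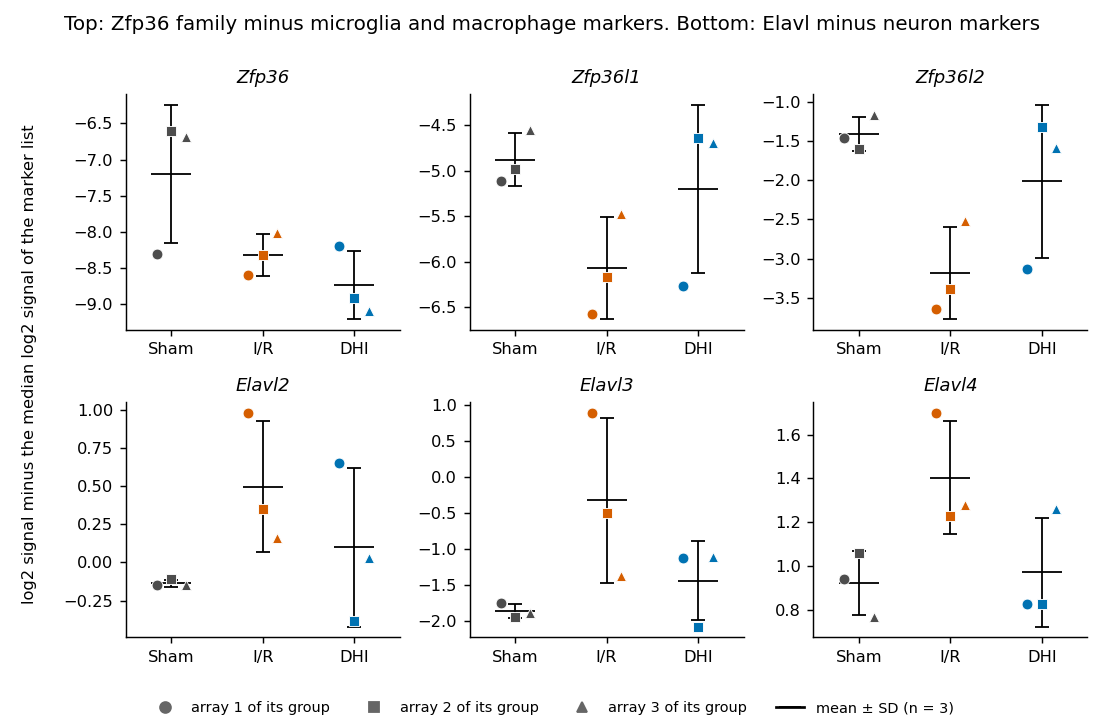
Log2 signal of a gene minus the median log2 signal of a marker list on the same array (y axis), by group (x axis). The top row uses the 10 microglia and macrophage markers and the bottom row the 11 neuron markers. Points are arrays and bars are mean ± SD (n = 3). In I/R the Zfp36 genes lie lower against the microglia and macrophage markers than in Sham, by 1.11 to 1.77 on the log2 scale and with overlap for Zfp36. The neuronal Elavl genes lie higher against the neuron markers, by 0.48 to 1.53. The cells that made the Zfp36 messages were not measured.

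The other marker lists had medians between -2.04 and 2.27, and their counts stand beside the 16.4% of all probes that rose and the 15.1% that fell. Astrocyte markers rose for 3 of 7 genes (median 0.72), and Gfap, the intermediate filament of reactive astrocytes, rose by 3.63 (SE 0.67, adjusted p = 0.0396), the water channel Aqp4 by 1.47, and the gap junction protein Gja1 by 0.79. T cell markers rose for 3 of 4 genes (Cd3g by 2.71, Cd3d by 0.59, and Cd8a), with a summed level of at most 0.766 on any array. Cd8a was not well above background on any Sham array and entered the test through I/R alone, where it was at least 131-fold higher. Such a bound sets the I/R mean against, on each Sham array, the higher of the gene's own signal and the lowest signal well above background. Endothelial markers rose for 2 of 7 genes (Tek by 1.1 and Vwf by 1.04). In the striatal neuron list 1 of 8 genes fell, in the choroid plexus list 1 of 4 rose (Folr1 by 4.51), and none of the 6 oligodendrocyte or 3 red blood cell genes passed the adjusted test. Their medians were 0.19 for endothelial, -1.77 for striatal, 2.27 for choroid plexus, -0.03 for oligodendrocyte, and -2.04 for red blood cell genes. Single arrays stood apart in 2 of these lists. The summed level of the striatal genes was 46 on Sham 1 and 42.1 on DHI 3, against 2.45 to 10.3 on the other 7 arrays. That of the choroid plexus genes was 93.6 on I/R 3, 137 on DHI 1, and 74.3 on DHI 3, against 0.468 to 7.5 on the other 6. The part of these differences in the values of the Zfp36 and Elavl genes was not tested.

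The kinases and phosphatases that act on the Zfp36 family changed for 9 of 13 genes, 3 upward and 6 downward (median -0.23), where 16.4% of all probes passed upward and 15.1% downward. In this pathway p38 activates the kinases MK2 and MK3, which phosphorylate Zfp36 proteins and dampen their action. Mapkapk3, which encodes MK3, rose by 1.70 (SE 0.41, adjusted p = 0.0396). Dusp1, the phosphatase that switches p38 off, fell by 2.51 (SE 0.68, adjusted p = 0.0403), and Mapk11, or p38 beta, fell by 2.5 (SE 0.65, adjusted p = 0.0396). The other genes that passed, named after their values had been seen, were Mapkapk2, the gene of MK2, at 1.59 and the p38 activator Map2k3 at 0.80 on the upward side. On the downward side were Map2k6, also a p38 activator, at -0.88 and 3 subunits of phosphatase 2A, which removes phosphate from Zfp36, with Ppp2r1a at -1.03, Ppp2cb at -0.62, and Ppp2ca at -0.61.

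Other proteins that bind AU-rich elements or stem-loops rose for 3 of 18 genes and fell for 0, with a median of -0.05. The upward share was near the 16.4% of all probes. Zc3h12a, or Regnase-1, an endonuclease that cuts cytokine messages, rose by 2.24 (SE 0.62, adjusted p = 0.0405). Its relative Zc3h12d was not well above background on any Sham array, entered the test through I/R alone, and was at least 6.84-fold higher there (adjusted p = 0.0404). The Y-box protein Ybx1, which packages messages, rose by 1.16 (SE 0.30, adjusted p = 0.0396). Competitors or partners of the same elements did not pass the adjusted test, with values of 0.73 for Tia1, 0.52 for Tial1, and 0.08 for Khsrp.

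The machinery that carries out the decay is described beside the 31.5% of all probes that passed. For deadenylation, the removal of the poly(A) tail, 2 of 19 genes rose and 3 fell (median 0.14). Btg2, an adaptor of the deadenylase, fell by 2.29 (SE 0.49, adjusted p = 0.0396), while its relative Btg1 rose by 1.32 (SE 0.37, adjusted p = 0.0405) and the poly(A) binding protein Pabpc1 by 1.31 (SE 0.36, adjusted p = 0.0404). The 2 remaining genes that fell, named after their values had been seen, were the adaptor Tob1 at -1.06 and the catalytic subunit Cnot7 at -0.77. The scaffold Cnot1, to which Zfp36 proteins bind, had a value of 0.11 (SE 0.14). For decapping and decay from the 5′ end, 1 of 16 genes passed, Lsm3 of the Lsm ring, which rose by 0.74 (SE 0.19, adjusted p = 0.0396), with a median of 0.03. For the exosome, which degrades from the 3′ end, 0 of 13 passed the adjusted test and 0 the study's thresholds, with a median of -0.08.

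Among messages known to be bound by the Zfp36 family, 6 of 16 rose and 3 fell, with a median of 1.53. Of all probes 16.4% rose and 15.1% fell, so that the downward share of the list was near that of all probes. The chemokines Ccl3 and Ccl2 rose by 5.86 (SE 1.34, adjusted p = 0.0396) and 5.30 (SE 1.36, adjusted p = 0.0396). The chemokine Cxcl1 was not well above background on any Sham array and entered the test through I/R alone (limma adjusted p = 0.0478). It was 44.8-fold higher there than its own background-level signals in Sham. Tnf itself, with 1.78 (SE 0.68, adjusted p = 0.0723), did not pass. The genes that fell, named after their values had been seen, were the immediate early gene Fos at -2.10, the prostaglandin synthase Ptgs2 at -1.99, and the vascular growth factor Vegfa at -1.50. The rises and falls within this list therefore ran in both directions. Il6, Il10, and Csf2 were too faint to be tested.

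Among messages bound by the neuronal Elavl proteins, 7 of 13 fell and 1 rose, where 15.1% of all probes fell and 16.4% rose. The median of the list was -1.78. The neurotrophin Bdnf fell by 3.51 (SE 0.85, adjusted p = 0.0396), with 2 of the 3 I/R arrays well above background, and the kinase Camk2a fell by 2.84 (SE 0.76, adjusted p = 0.0401). The gene that rose was the cell cycle gene Ccnd1, at 1.09, named after its value had been seen. Gap43, the classical message of Elavl4, had a value of -1.78 (SE 0.61, adjusted p = 0.0551). Many genes of this list are made mainly by neurons, whose markers had a median of -2.62, and the part of the neuron shift in this list was not tested.

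**Figure D4:**
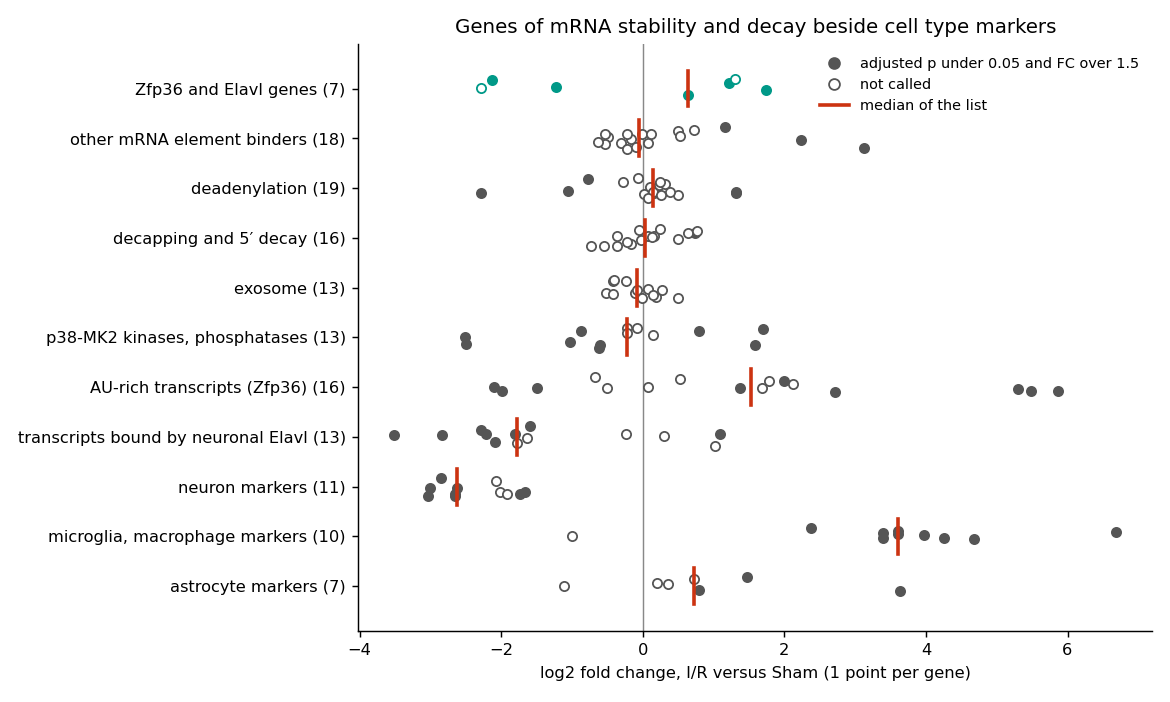
Log2 fold change in I/R versus Sham (x axis) of each tested gene in the lists of mRNA stability, decay, and bound messages and in 3 marker lists (rows, with the number of genes tested). Each point is a gene, filled where the adjusted p was under 0.05 and the FC over 1.5, and red lines are list medians. Cxcl1 and Zc3h12d, at background in Sham, are drawn at their fitted values. The lists of the decay machinery have medians of -0.08 to 0.14, with single deadenylation genes called on both sides, whereas the messages of the neuronal Elavl list lie low, with a median of -1.78, beside the neuron markers at -2.62.

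After DHI, Elavl1 and the 3 Zfp36 genes had lower means than in I/R and the 3 neuronal Elavl genes had higher means. Of these differences 0 passed the adjusted test (adjusted p = 0.196 to 0.219 in limma), where 0.00421% of all probes, or 1 probe, passed. At the study's thresholds 4 of the 7 passed, where 21.9% of all probes did (11.5% with DHI higher and 10.5% with DHI lower), among 6035 probes with an unadjusted p under 0.05. These were Zfp36 with -2.01 (SE 0.81, 95% confidence interval -3.88 to -0.14), Elavl1 with -1.06 (SE 0.39, -1.97 to -0.16), Zfp36l1 with -0.72 (SE 0.21, -1.2 to -0.24), and Elavl2 with 1.58 (SE 0.59, 0.23 to 2.93). For Zfp36, 2 of the 3 DHI arrays were not well above background, and with normexp background correction its value was -0.31 and it did not pass. By the study's own test without pooled spread, and in a fit of only these 2 groups, Zfp36l1 was the 1 gene of the 7 that passed, where 1.97% and 9.05% of all probes did. The study's network that named Zfp36l1 was built from its genes changed between DHI and I/R on these same arrays. No result for Zfp36l1 between DHI and I/R is therefore independent evidence. The comparisons with Sham and with DHI share the I/R arrays, so that their values for a gene are not independent.

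Elavl3 and Elavl4 were higher in DHI than in I/R by 0.87 (95% confidence interval -0.06 to 1.79) and 1.55 (95% confidence interval -0.24 to 3.34), and neither passed the study's thresholds. Zfp36l2 had -0.41, an FC of 1.33, under the limit of 1.5. Zfp36l1 was the 1 gene of the 7 whose DHI arrays did not overlap the I/R arrays, with DHI lower, against 9.53% of all probes (5.51% with DHI higher and 4.02% with DHI lower). Beside these genes, 0 genes of any list passed the adjusted test. At the study's thresholds 11.5% of all probes were higher and 10.5% lower in DHI than in I/R. Of the neuron markers 8 of 11 were higher, and of the microglia and macrophage markers 8 of 10 were lower. At the same thresholds 2 of 7 astrocyte and 2 of 4 T cell markers were lower, and 3 of 3 red blood cell genes were higher, with a median of 2.67 and a summed level of 2.27 to 3.34 in I/R, 7.33 to 38.9 in DHI, and 3.75 to 29.7 in Sham. The part of these markers in the values of the 7 genes was not tested. At those thresholds 5 of 13 messages bound by neuronal Elavl proteins were higher and 0 lower. Of the 16 messages bound by the Zfp36 family 4 were lower and 2 higher, the latter near the 11.5% of all probes. Of the decay machinery, 2 of 19 deadenylation genes, 1 of 16 decapping genes, and 0 of 13 exosome genes were lower. These shares were near or under the 10.5% of all probes.

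The spread within the DHI group was wide. For Elavl1, Elavl3, Elavl4, Zfp36, and Zfp36l2, DHI 1 stood apart from the other DHI arrays. For Elavl2 and Zfp36l1, DHI 2 lay nearly as far from the group mean on the other side. A scale was used that sets the Sham mean at 0% and the I/R mean at 100%. On it DHI 1 stood at 94.7% for Elavl1, 100.1% for Elavl3, 90.3% for Elavl4, and 91.6% for Zfp36. It stood at 74.8% for Zfp36l2, 65.9% for Zfp36l1, and 55.4% for Elavl2, its lowest. DHI 2 and DHI 3 stood between -8.5% and 36.9% for the 6 genes other than Zfp36. Without DHI 1, 6 of the 7 genes passed the adjusted test against I/R, where 40.1% of all probes did: Zfp36l1 had -0.87 (adjusted p = 0.0141), Elavl1 -1.55 (adjusted p = 0.00316), Elavl3 1.30 (adjusted p = 0.0139), Elavl2 1.89 (adjusted p = 0.0469), and Elavl4 2.21 (adjusted p = 0.0439) in limma. The sixth was Zfp36 (limma adjusted p = 0.00694), whose remaining DHI arrays were both not well above background. Its 7.77-fold difference and its p were therefore computed against background-level signals and give no reliable size of the change. Zfp36l2, with -0.54, stayed under the FC limit. With I/R 1, I/R 2, DHI 2, or DHI 3 left out instead, the 1 gene past the study's thresholds was Zfp36l1. Each array was left out in turn, and nothing in the labels sets DHI 1 apart.

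Against Sham, the DHI arrays differed in 0 of the 7 genes by the adjusted test or by the study's thresholds, as they did for 0% and 3.58% of all probes (2.52% with DHI higher and 1.06% with DHI lower at the study's thresholds), with 1294 probes at an unadjusted p under 0.05. The estimates were 0.68 for Elavl1 (95% confidence interval -0.23 to 1.59), 0.50 for Zfp36l1 (0.02 to 0.99), 0.23 for Zfp36l2 (-0.18 to 0.64), and -0.71 for Zfp36 (-2.57 to 1.16). The neuronal genes had -0.55 for Elavl2 (-1.9 to 0.8), -0.37 for Elavl3 (-1.29 to 0.56), and -0.74 for Elavl4 (-2.53 to 1.05). These intervals are wide enough to hold changes of more than 2-fold for Elavl1, Elavl2, Elavl3, Elavl4, and Zfp36. All 3 DHI arrays lay above all 3 Sham arrays for Zfp36l1 and Zfp36l2, 2 of the 7 genes, where 18.6% of all probes had no overlap (10.3% with DHI higher and 8.33% with DHI lower).

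The genes whose profiles over the 9 arrays were most like those of the 7 were found among 13644 tested symbols by the root mean square difference of the centred log2 signals. For Elavl1 these were Lrp10 (0.07) and Cib1 (0.1), against a standard deviation of Elavl1 over the arrays of 0.89. For Elavl4, with a standard deviation of 1.38, they were Ina, the neurofilament protein alpha-internexin (0.13), Serp2 (0.15), and Syt16 (0.16). For Elavl2 they were Gng3, Cadps, and Arsg (each 0.13), and for Elavl3 Idh3a (0.07), Chchd10 (0.09), and Wnk2 (0.09). Gng3 encodes a neuronal G protein subunit and Cadps a protein of vesicle release.

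Zfp36l1 was closest to Trib3, Rad9b, and Rps4y2 (each 0.11), and Zfp36l2 to Yipf1 (0.04), Znrd1 (0.05), and Rpl10a (0.05). Zfp36 had no neighbour as close: Nfkbiz, a regulator of NF-kappaB targets, was at 0.3, Trip13 at 0.45, and Ch25h, an interferon-induced cholesterol hydroxylase, at 0.47, against its standard deviation of 1.32. The Zfp36 signals on DHI 2 and DHI 3 that entered this match were not well above background.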

How the data were processed

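The authors deposited, for each array, the output of Agilent Feature Extraction (version 10.7.1.1 per the labels), from which the background-corrected processed intensity of each spot was used. The authors' deposited values for the whole series, on a log2 scale, followed quantile-normalized log2 intensities computed here (Pearson's r 0.99953 over probes on each array). Their normalization is not given in the sources used here, and they served as an alternative. The number of value columns not used was 0. The sequences printed are those of the probes in the deposited files, and 6 of the 7 genes matched the RefSeq gene table (GRCr8) by accession and 7 by symbol.

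From the 62976 spots of an array, 58717 were not controls, and 392 to 725 outlier spots were left out. Spots of a probe were averaged (Zfp36l2 had 1 spot and the other genes 2), and the value was the log2 intensity minus the array's 75th percentile. No probe was saturated on an array of the series (0 probes). A probe was tested where 1 or more groups had it well above background on each of their 3 arrays, as 23747 of 30367 had. Comparisons came from limma (lmFit and eBayes) with all 9 arrays in the fit, which left 6 residual degrees of freedom. It gave the 3 comparisons, with Benjamini-Hochberg adjustment over all probes tested. R 4.3.3, limma 3.58.1, and the data.table package (1.17.8) were used, and the steps were tested on simulated data. Marker differences were compared by exact permutation tests. Lists are described by counts and medians.

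The text names all 7 genes, up to 3 called genes per list with the largest change in I/R versus Sham, and the 3 genes with the profile nearest each of the 7. It says where some others were named after their values had been seen. Cx3cr1, Tia1, Tial1, Khsrp, Cnot1, Tnf, Gap43, Il6, Il10, and Csf2 are also outside this rule and are not marked so where they appear. A few genes that this rule names are not reported here. The genes and lists were chosen with earlier results of these data known. The alternatives were quantile normalization, no scaling, normexp (offset 50), the authors' log2 values, no filter, a filter on all 9 arrays, a fit of 2 groups, array weights, a replicate block, the methods' t-test, and each array left out in turn.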

Additional observations from a re-analysis of the deposited data

How the results depend on the processing

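Between I/R and Sham, 5 genes passed the adjusted test. The count was 0 with no scaling between arrays, where 1 of all probes passed, 3 by the methods' t-test (Zfp36l1, Zfp36l2, and Elavl1), 4 with no filter, 7 with array weights, and 0 to 6 with 1 array left out. The last range came with 0 or 1 of all probes called without any one of the 3 Sham arrays, I/R 1, I/R 2, or DHI 3, and 10135 and 10266 without I/R 3 and DHI 1, against 7471. At the study's thresholds 6 genes passed, and 3 to 7 with 1 array left out. In DHI versus I/R, 0 genes passed the adjusted test, 7 with array weights, and 0 to 6 with 1 array left out. At the study's thresholds 4 passed, 2 with normexp, 1 in a fit of only the 2 groups, 1 by the methods' t-test, 7 with array weights, and 1 to 6 with 1 array left out. The calls over all probes at those thresholds went from 5211 to 2149 in the fit of 2 groups, 468 by the methods' t-test, 12217 with array weights, and 939 to 10737 with 1 array left out. In DHI versus Sham, 0 genes passed either rule, 1 passed both (Zfp36) with array weights, and 0 to 2 passed the study's thresholds with 1 array left out (Zfp36 without DHI 1, Zfp36l1 and Elavl1 without DHI 2). The probes past those thresholds went from 849 to 1688 with no scaling, 1341 with normexp, 1407 with no filter, 4175 with array weights, 1280 with the replicate block, 446 by the methods' t-test, and 344 to 2519 with 1 array left out. The array weights ran from 0.06 for DHI 1 to 131.42 for DHI 3 without convergence, so counts with them rest on very few arrays. The cause of the other changes was not tested. With no scaling the median of all probes moved from 0.1 to -0.36 in DHI versus I/R and from 0.02 to -0.25 in DHI versus Sham. Over quantile normalization, no scaling, and normexp, 18 list medians moved by more than the spread and 126 did not.

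Every fold change of the 7 genes kept its direction under every setting run, both between I/R and Sham and between DHI and I/R. In DHI versus Sham 4 estimates changed sign: Zfp36l2 to -0.03 with no scaling, Zfp36 to 0.23 with normexp, and Elavl3 to 0.03 with array weights and to 0.07 without DHI 1 (from -0.59 to 0.07 with 1 array left out). The 6 values relative to markers kept their direction in all settings run. Same-numbered arrays did not deviate together in every pair of groups. Pearson's r over probes was 0.07, -0.29, and 0.15 for I/R and Sham and 0.48, -0.34, and 0.42 for DHI and I/R. For DHI and Sham it was 0.08, 0.3, and 0.02. With 3 arrays a group, these values cannot settle whether the numbers pair arrays. With the replicate block, 6 genes passed the adjusted test in I/R versus Sham and 0 in both comparisons with DHI, and 6, 5, and 0 passed the study's thresholds. The slide as a random block was not run, since each group lies on 1 slide, and the mean over all probes of a gene equals the value given, since each gene has 1 probe. Zfp36 has no value where probes had to be well above background on all 9 arrays. The signal of Zfp36, which was not well above background on 2 DHI arrays, limits its comparisons.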

Other observations

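Probes that carry the elements bound by these protein families were counted after the values had been seen, as a description without a test. The 1533 tested probes with ATTTA had a median log2 fold change of -0.14 in I/R versus Sham, against -0.08 for the 1641 probes with only its reverse complement TAAAT and -0.1 for all probes. Of the probes with ATTTA, 14.9% rose and 16.4% fell, close to the 16.4% and 15.1% of all probes. The 31 probes with the nonamer TTATTTATT, the Zfp36 probe among them, had a median of -0.45 in I/R versus Sham and of 0.3 in DHI versus I/R, and the 51 probes with only AATAAATAA had 0.17 and 0.04. The 857 probes with TTTNTTT had a median of -0.14 in I/R versus Sham, and the 1407 with only AAANAAA had 0.03. The elements overlap, with 175 probes that hold both TTTNTTT and ATTTA. Probes with an element held less G and C than others (medians 35% to 38.3%, against 45% for all probes), and the part of base composition in these values was not tested. A probe shows 60 bases of a message, so most elements of a message lie outside it.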
